A study of Arabidopsis thaliana with 6 samples.

Results

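Expansins and xyloglucan endotransglucosylase/hydrolases (XTHs) are the 2 large families of secreted proteins that loosen and rebuild the plant cell wall. Of 19807 genes measured, 54 belonged to them by a match of the gene symbol or of the protein description, 25 expansins and 29 XTH genes, of which 9 were found by the description alone. RefSeq names on assembly TAIR10.1 give 36 expansins and 33 XTH genes, and the other 11 and 4, among them EXPA2, XTH1, XTH2, XTH3 and XTH29, were not analysed here. RNA came from whole Arabidopsis thaliana seedlings of ecotype Col-0, 8 days old and raised under continuous light, in 3 wild type libraries (replicates 1 to 3) and 3 libraries of the mutant prp8a-14 (replicates 4 to 6), a line that the labels also write prp8-14. It carries a mutation in PRP8A, the protein at the centre of the spliceosome. These are biological replicates according to the series design, and p-values measure the spread between them. Roots and shoots were not separated, so a lower level can stand for fewer cells of a type or for less RNA per cell, which cannot be told apart here.

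The growing plant cell wall is a mesh of cellulose microfibrils bound by xyloglucan and set in pectin. Expansins loosen this mesh without cutting it, and do so best at acid pH, which plasma membrane proton pumps provide. XTH enzymes cut a xyloglucan chain and join the new end to another chain, and a few of them cut it without joining. Both families are large, and single members are known for single organs, such as EXPA7 and EXPA18 for root hairs and XTH22 (TCH4) for shoots that are touched or treated with brassinosteroid.

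Levels are CPM, read counts scaled by library size, and a change is the log2 difference of prp8a-14 from wild type with its standard error (SE). Genes were compared with limma over the whole table, and a gene rose or fell where its adjusted p by the Benjamini-Hochberg method (BH) was under 0.05. Total counts per library ran from 49126331 to 63069817, and the lowest count of any member in any library was 26, for XTH25. PRP8A itself stood at 414, 389 and 433 CPM in the wild type libraries, against 537, 499.6 and 466 CPM in those of prp8a-14, a level that does not check the labels, since a mutated gene can still be transcribed. Over all genes 35.2% passed the threshold, 17.9% up and 17.3% down, with a median log2 change of 0.0037. Of the 54 members 12 rose, 24 fell and 18 did not pass. Their groups did not overlap for 12 members higher and 24 lower in the mutant, against 24.3% and 23.7% of all genes. When library totals replaced the scaled sizes of the authors, the median of all genes shifted to -0.09, and 10.7% of all genes rose and 29.6% fell. The members then gave 4 rises and 11 falls among expansins and 5 rises and 16 falls among XTH genes.

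**Figure D1:**
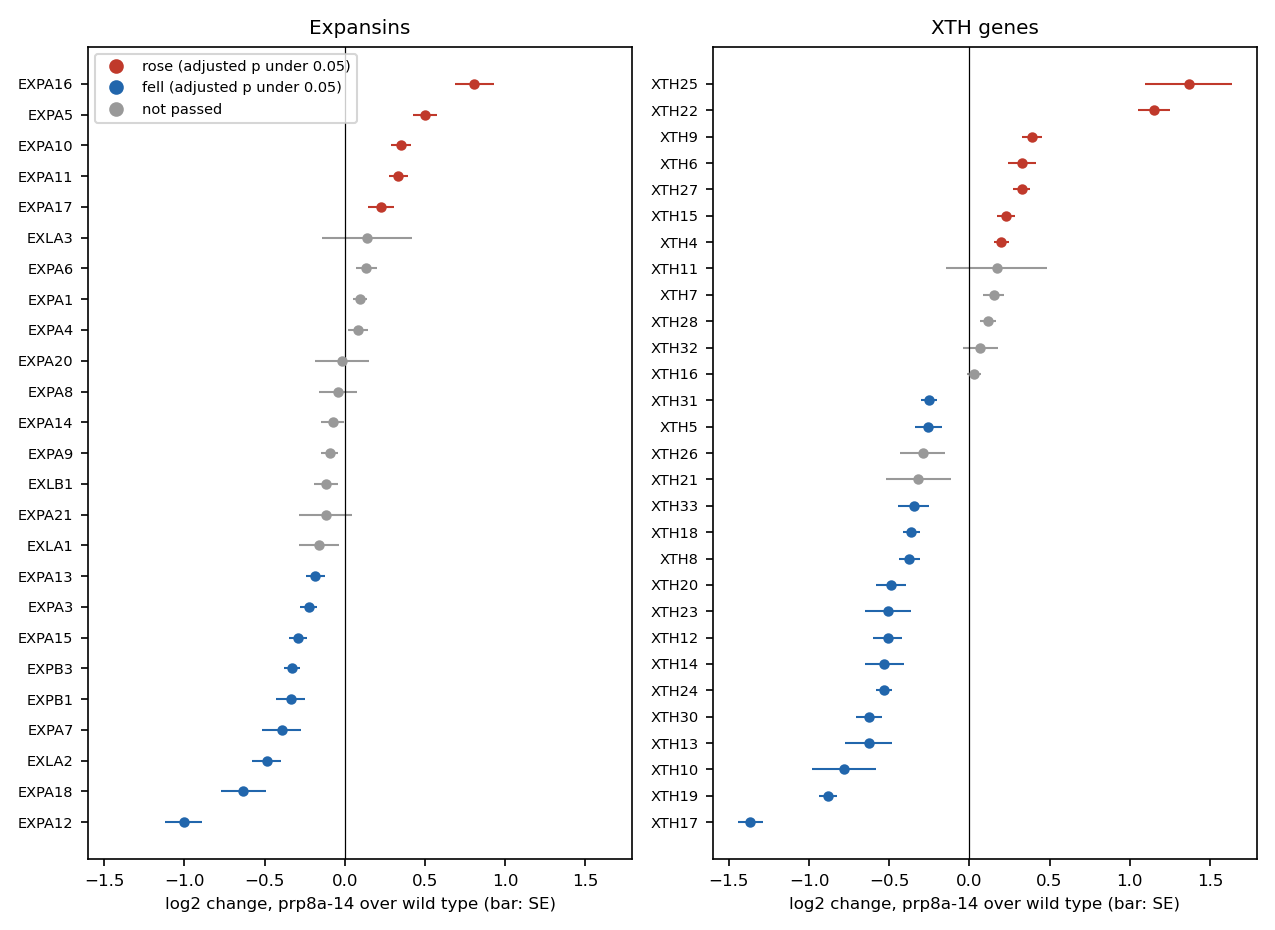
Log2 change of each of the 25 expansins (left) and 29 XTH genes (right) in prp8a-14 over wild type on the x axis, with its SE as a bar and the call as the colour. Falls outnumber rises in both panels, from -1.37 for XTH17 to 1.37 for XTH25.

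Among the expansins 5 rose and 9 fell of 25, which is 20.0% and 36.0% against 17.9% and 17.3% of all genes. The median log2 change was -0.09, and the median absolute change was 0.22 against 0.15 over all genes. EXPA12, an alpha-expansin at a low level, was the 1 expansin past 2-fold, where 1.49% of all genes fell and 0.838% rose by that much.

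Alpha-expansins are the branch with the best known wall-loosening activity, and of 19 measured 5 rose and 6 fell (26.3% and 31.6%, against 17.9% and 17.3% of all genes). EXPA12 (AT3G15370) stood at 7.49, 7.31 and 8.12 CPM in the wild type libraries, against 3.60, 3.51 and 4.33 CPM in those of prp8a-14. Every mutant library lay below every wild type library, and the log2 change was -1.01 (SE 0.12; limma with BH, adjusted p = 5.3e-05). EXPA18 (AT1G62980), an expansin of root hairs, stood at 13.3, 19.8 and 16.1 CPM in the wild type libraries, against 8.69, 11.4 and 11.5 CPM in the mutant. The groups did not overlap, although wild type replicate 1 was close to the mutant libraries, and the log2 change was -0.63 (SE 0.14; limma with BH, adjusted p = 0.0049). Its relative in root hairs, EXPA7, fell by 0.39 (limma with BH, adjusted p = 0.026) from 12.3, 16.6 and 15.7 CPM to 9.65, 12.6 and 11.6 CPM, with overlapping groups. EXPA7 was not called when wild type replicate 2, wild type replicate 3 or mutant replicate 4 was left out, nor in limma without the trend. EXPA15, EXPA3 and EXPA13 fell by 0.29, 0.22 and 0.18, and EXPA13 lost its call when any library but wild type replicate 1 was left out.

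The alpha-expansins that rose were EXPA16, EXPA5, EXPA10, EXPA11 and EXPA17. EXPA16 (AT3G55500) stood at 3.44, 4.07 and 4.55 CPM in the wild type libraries, against 6.84, 7.07 and 7.09 CPM in those of prp8a-14. The 3 mutant libraries were nearly equal and all above wild type, with a log2 change of 0.81 (SE 0.12; limma with BH, adjusted p = 3.6e-04). EXPA5, which is induced by brassinosteroid, rose by 0.50, and EXPA10, known for its part in leaf and petiole growth, by 0.35. EXPA11 rose by 0.33. EXPA17, known from lateral roots, had overlapping groups and rose by 0.23 (limma with BH, adjusted p = 0.044), or by 0.14 without wild type replicate 1. The call ended when any library but wild type replicate 3 or mutant replicate 4 was left out, and it was also lost with quantile normalization, with library totals (0.13) and in limma without the trend.

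The most abundant alpha-expansins did not pass the threshold. EXPA1 (AT1G69530), an expansin of guard cells and leaves, had the highest level per kb of transcript of all expansins, at 139.6 CPM per kb in wild type. Its level was 195, 212 and 204 CPM in the wild type libraries, against 216, 216 and 220 CPM in prp8a-14, without overlap, for a log2 change of 0.10 (SE 0.04; limma with BH, adjusted p = 0.10). EXPA4 (AT2G39700), next in level, stood at 98.8, 86.1 and 92.6 CPM and at 102, 89.9 and 102 CPM, with overlapping groups and a log2 change of 0.08. The values of EXPA6, EXPA8, EXPA9, EXPA14, EXPA20 and EXPA21 ran from -0.12 to 0.13, and none passed. EXPA6 was called as a rise when mutant replicate 5 was left out. EXPA9 was called as a fall with library totals and when mutant replicate 6 was left out.

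Beta-expansins are the branch that also holds the group 1 allergens of grass pollen. The 2 measured both fell, where 17.3% of all genes fell, and EXPB2, EXPB4, EXPB5 and EXPB6 were not analysed here. EXPB3 (AT4G28250) stood at 114.7, 104 and 107 CPM in the wild type libraries, against 88.9, 80.8 and 90.01 CPM in those of prp8a-14. All mutant libraries were below all wild type libraries, with a log2 change of -0.33 (SE 0.05; limma with BH, adjusted p = 5.6e-04). EXPB1 fell by 0.34 from a lower 8.37 CPM ± 0.448 (SD, n = 3), and leaving out wild type replicate 2 ended its call. Expansin-like proteins share the fold of expansins but have no established wall-loosening activity, and of these EXLA2 fell by 0.49 while EXLA1, EXLA3 and EXLB1 did not pass (-0.16, 0.14 and -0.12). EXLA1 and EXLA3 lie beside each other and share 86.6% of aligned coding bases.

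Among the XTH genes 7 rose and 15 fell of 29, which is 24.1% and 51.7% against 17.9% and 17.3% of all genes. Their median log2 change was -0.29. Without wild type replicate 1 it was -0.40, the low end of the values with 1 library left out, whose range is given at the end. The median absolute change was 0.36 against 0.15 over all genes. Past 2-fold lay XTH17, which fell, and XTH22 and XTH25, which rose. Changes of at least 0.58 in size that passed were 5 falls and 2 rises among XTH genes and 2 falls and 1 rise among expansins, where 5.02% of all genes fell and 3.09% rose by that much. Of the genes with a mean of at least 5 CPM, 21.2% rose and 17.9% fell in the whole table, against 6 and 14 of 25 XTH genes and 5 and 9 of 22 expansins.

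**Figure D2:**
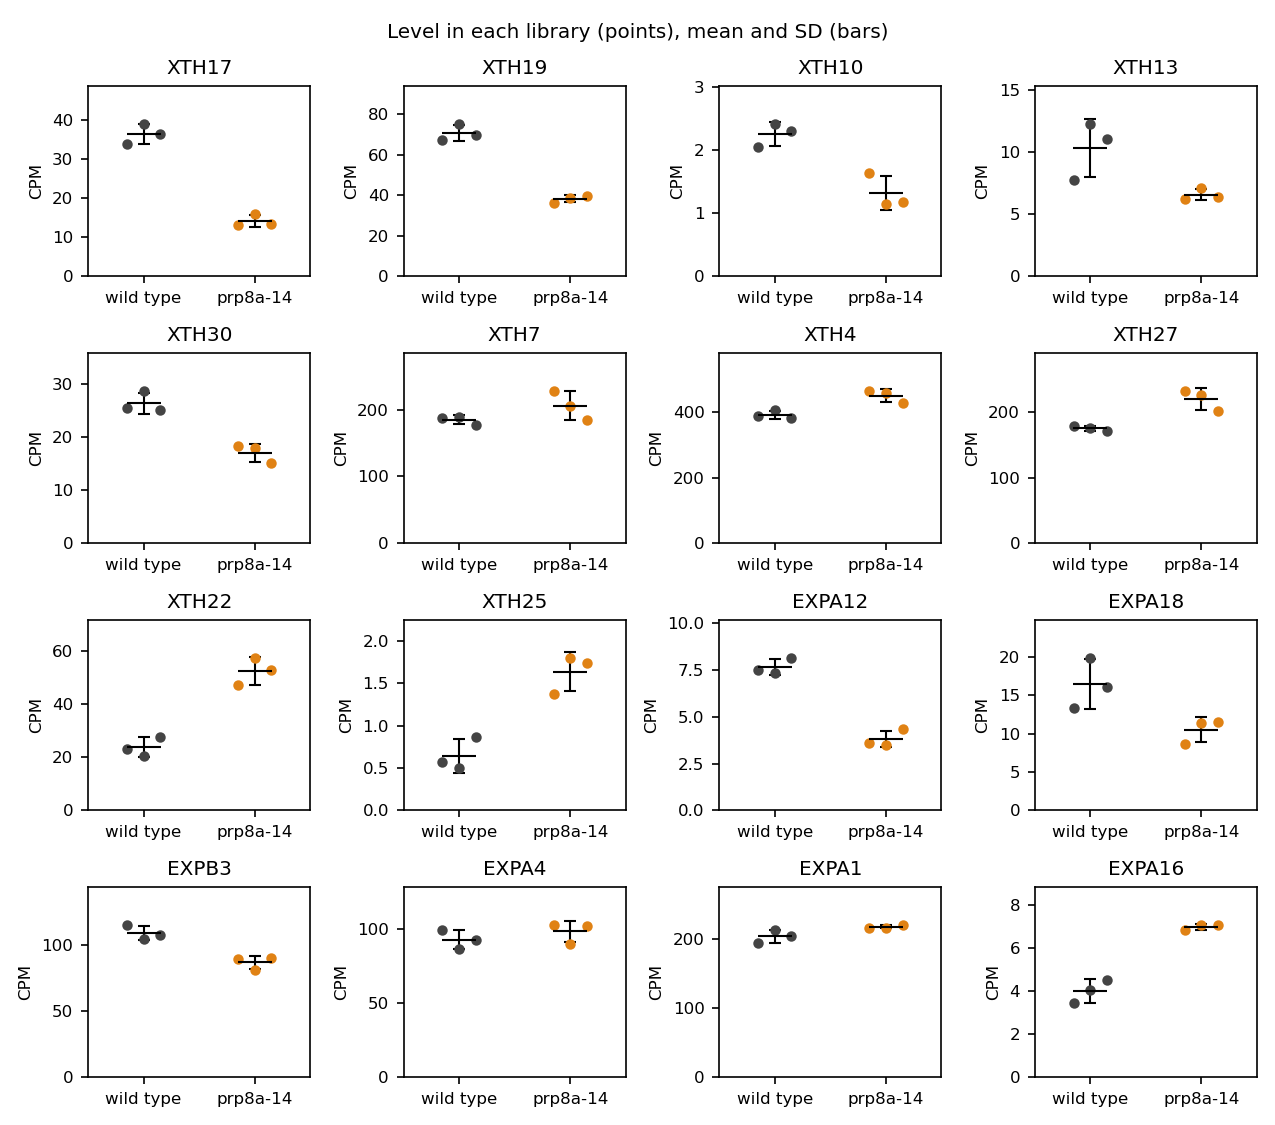
CPM of 16 members in each library (points; dark grey, wild type; orange, prp8a-14) with the mean and SD of each group (bars, n = 3), each panel from 0 on its own scale. The members are those that passed with a log2 change of at least 0.58 in size and the 3 most abundant of each family; XTH17 and XTH22 show the groups furthest apart among those above 10 CPM in either group.

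XTH1 to XTH26 form the groups I and II, which hold the chain-joining enzymes, and of 23 measured 6 rose and 12 fell (26.1% and 52.2%, against 17.9% and 17.3% of all genes). XTH17 (AT1G65310), a gene of the root elongation zone that is also induced by shade in shoots, stood at 33.9, 39.02 and 36.6 CPM in the wild type libraries, against 13.2, 15.9 and 13.5 CPM in those of prp8a-14. Every mutant library was far below every wild type library, a log2 change of -1.37 (SE 0.08; limma with BH, adjusted p = 5.3e-07). XTH19 (AT4G30290), of the same branch, stood at 67.5, 75.2 and 69.6 CPM and at 36.5, 38.9 and 39.7 CPM. It too separated the genotypes without overlap, with a log2 change of -0.88 (SE 0.05; limma with BH, adjusted p = 6.7e-07). The other members of this branch, XTH20 and XTH18, fell by 0.49 and 0.36. These 4 genes are alike: XTH17 and XTH18 share 92.2% of aligned coding bases, XTH18 and XTH19 88.8%, and XTH20 shares 85.6% with XTH18 and 85.2% with XTH17. The sources used here do not say how reads that match several of them were counted, so their single values are uncertain.

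XTH10 (AT2G14620) was among the lowest XTH genes, with 2.04, 2.41 and 2.30 CPM in the wild type libraries, against 1.63, 1.14 and 1.18 CPM in prp8a-14. The groups were apart, with a log2 change of -0.78 (SE 0.20; limma with BH, adjusted p = 0.010). Adding 1 CPM, which weighs on low genes, gave -0.49. XTH13 (AT5G57540), a root gene, stood at 7.75, 12.2 and 11.01 CPM and at 6.23, 7.07 and 6.41 CPM. Wild type replicate 1 was nearer to the mutant libraries than to the other wild type ones, and the log2 change was -0.63 (SE 0.15; limma with BH, adjusted p = 0.0061). XTH24 (MERI5), first described from meristems, fell by 0.53 with groups apart. XTH14 and XTH12, of roots, fell by 0.53 and 0.51, XTH23 by 0.51, XTH8 by 0.37 and XTH5 by 0.26. Leaving out wild type replicate 3 or mutant replicate 6 ended the call of XTH23, and leaving out any library but wild type replicate 2 or mutant replicate 6 that of XTH5; neither was called in limma without the trend. XTH21 and XTH26, also of roots, had values of -0.32 and -0.29 that did not pass; leaving out mutant replicate 6 gave XTH21 a called change of -0.58.

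XTH22 (AT5G57560), the touch gene TCH4, was higher in every mutant library. It stood at 23.3, 20.4 and 27.7 CPM in the wild type libraries, against 47.2, 57.4 and 52.9 CPM in those of prp8a-14. The log2 change was 1.15 (SE 0.10; limma with BH, adjusted p = 7.3e-06), with no overlap. XTH25 (AT5G57550), the gene next to it, stood at 0.567, 0.497 and 0.867 CPM and at 1.38, 1.80 and 1.74 CPM, from counts of 26 to 49 and of 76 to 108. Its log2 change was 1.37 (SE 0.27; limma with BH, adjusted p = 0.0023), and adding 1 CPM gave 0.69. The ratio of pooled counts, scaled by library size, was 2.52 with an exact 95% interval of 2.004 to 3.19, which covers counting error only. XTH9, known from the shoot apex, XTH6 and XTH15, which responds to shade, rose by 0.39, 0.33 and 0.23. The call of XTH6 ended once mutant replicate 5 was left out and in limma without the trend.

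Of the 3 XTH genes with the highest level per kb, XTH4 and XTH27 rose and XTH7 did not pass. XTH4 (AT2G06850), at 253 CPM per kb in wild type the highest of the family, stood at 388, 405 and 383 CPM and rose to 464, 458 and 427 CPM. Its groups were apart, with a log2 change of 0.20 (SE 0.05; limma with BH, adjusted p = 0.0063). With library totals the value of XTH4 was 0.10 and that of XTH15 was 0.13, and both lost their calls (limma with BH, adjusted p = 0.066 and 0.097). XTH7 (AT4G37800), next in level, held 188, 189 and 177 CPM in the wild type libraries, against 228, 205 and 185 CPM in prp8a-14, overlapping and not past the threshold (0.15; limma with BH, adjusted p = 0.091). It was called as a rise when mutant replicate 6 was left out. XTH16 had a change of 0.03 and XTH11 of 0.17, and neither passed.

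Group III, XTH27 to XTH33, includes XTH31 and XTH32, which mainly cut xyloglucan without joining it, and of 6 measured 1 rose and 3 fell, where 17.9% of all genes rose and 17.3% fell. XTH27 (AT2G01850), known from the veins of leaves, stood at 179, 176 and 171 CPM in the wild type libraries, against 232, 227 and 201 CPM in those of prp8a-14. The groups did not overlap, and the log2 change was 0.33 (SE 0.05; limma with BH, adjusted p = 6.3e-04). XTH30 (AT1G32170) went the other way, from 25.4, 28.7 and 25.1 CPM to 18.3, 17.9 and 15.2 CPM. All mutant libraries were below wild type, with a log2 change of -0.63 (SE 0.08; limma with BH, adjusted p = 1.3e-04). XTH31 fell by 0.25 from 109 CPM ± 5.58 (SD, n = 3), while XTH32 had a value of 0.07 and XTH28 of 0.12 that did not pass. Leaving out mutant replicate 6 made XTH28 a called rise. XTH33, which differs from its relatives by a predicted membrane anchor, fell by 0.35, a call that ended when wild type replicate 3 or mutant replicate 4 was left out.

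Several XTH genes lie beside each other, and neighbours did not always move alike. In the gene order of TAIR10.1, XTH13, XTH25 and XTH22 follow each other on chromosome 5, with XTH12 2 genes from XTH13. XTH12 and XTH13, with 89.7% of aligned coding bases in common, had changes of -0.51 and -0.63, while XTH25 and XTH22 had changes of 1.37 and 1.15. XTH13 and XTH25 are direct neighbours with 68.6% identity and passed the threshold in opposite directions. On chromosome 4, XTH24, XTH18 and XTH19 lie in a row and all fell, as did the neighbours XTH23 and XTH14. A property not used to choose the members was the number of exons in the longest RefSeq transcript: of 14 XTH genes with 3 exons 2 rose and 10 fell (median -0.51), and of 14 with 4 exons 4 rose and 5 fell (median 0.09), where 17.9% of all genes rose and 17.3% fell. Related genes are not independent in these counts. The remaining XTH gene, XTH22 with 2 exons, rose by 1.15. Among expansins, those with 3 exons gave 3 rises and 5 falls of 14 (median -0.08). Those with up to 2 exons gave 1 rise and 2 falls of 6 (median -0.07). Expansins with at least 4 exons gave 1 rise and 2 falls of 5 (median -0.12).

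**Figure D3:**
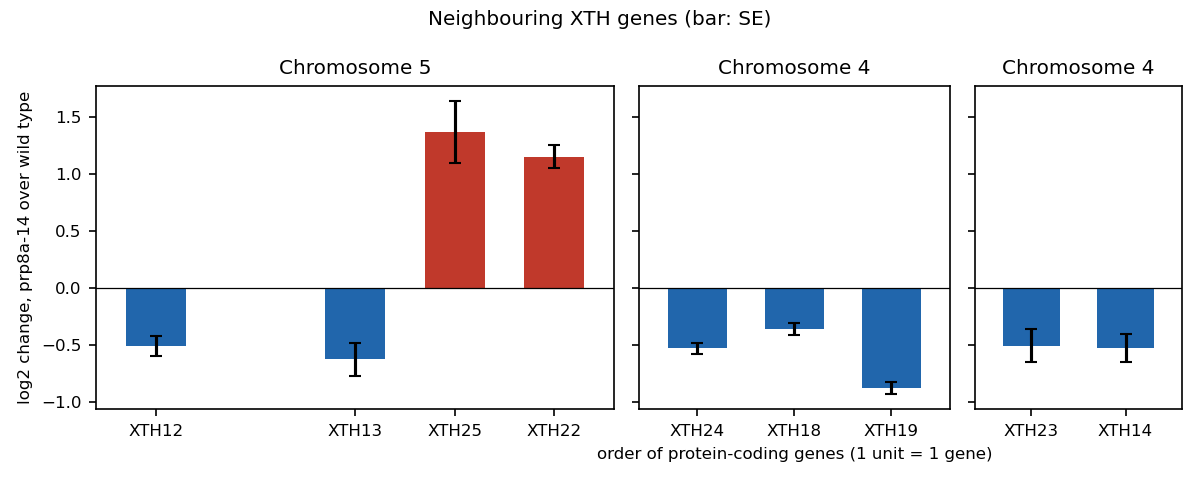
Log2 change with its SE (bars) of XTH genes that lie in 3 groups of neighbours, placed by their order among protein-coding genes on chromosomes 5 and 4. On chromosome 5 XTH12 and XTH13 point down (-0.51 and -0.63) and XTH25 and XTH22 up (1.37 and 1.15).

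Summed over each family, the levels of the genotypes overlapped with the authors' scaled sizes and did not overlap with library totals. The expansins summed to 907, 928 and 920.4 CPM in the wild type libraries, against 896.5, 881 and 930.6 CPM in prp8a-14, with overlapping groups. The XTH genes summed to 1603, 1664 and 1607 CPM and to 1716, 1689 and 1586 CPM, overlapping as well. Without XTH4, XTH7 and XTH27 the other 26 XTH genes summed to 873 CPM ± 22.8 (SD, n = 3) in wild type and to 788 CPM ± 13.1 (SD, n = 3) in the mutant, with all mutant libraries below. XTH4 made up 24.1% ± 0.257 (SD, n = 3) of the XTH sum in wild type and 27.02% ± 0.126 (SD, n = 3) in prp8a-14. XTH19 went from 4.35% ± 0.156 (SD, n = 3) of that sum to 2.31% ± 0.190 (SD, n = 3). EXPB3 went from 11.8% ± 0.721 (SD, n = 3) of the expansin sum to 9.59% ± 0.380 (SD, n = 3). For expansins without EXPA1, EXPA4 and EXPB3 the sums were 514 CPM ± 13.4 (SD, n = 3) and 501 CPM ± 15.7 (SD, n = 3), with overlapping libraries. With library totals the expansins summed to 929, 957 and 955 CPM in wild type seedlings, against 852, 847 and 914 CPM in prp8a-14, and the XTH genes to 1640.02, 1715 and 1668 CPM, against 1631, 1624 and 1558 CPM. Every mutant library was then below every wild type library in both families, so whether the sums differ depends on the scaling. These sums were not tested, since the members were chosen with results of these data known.

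**Figure D4:**
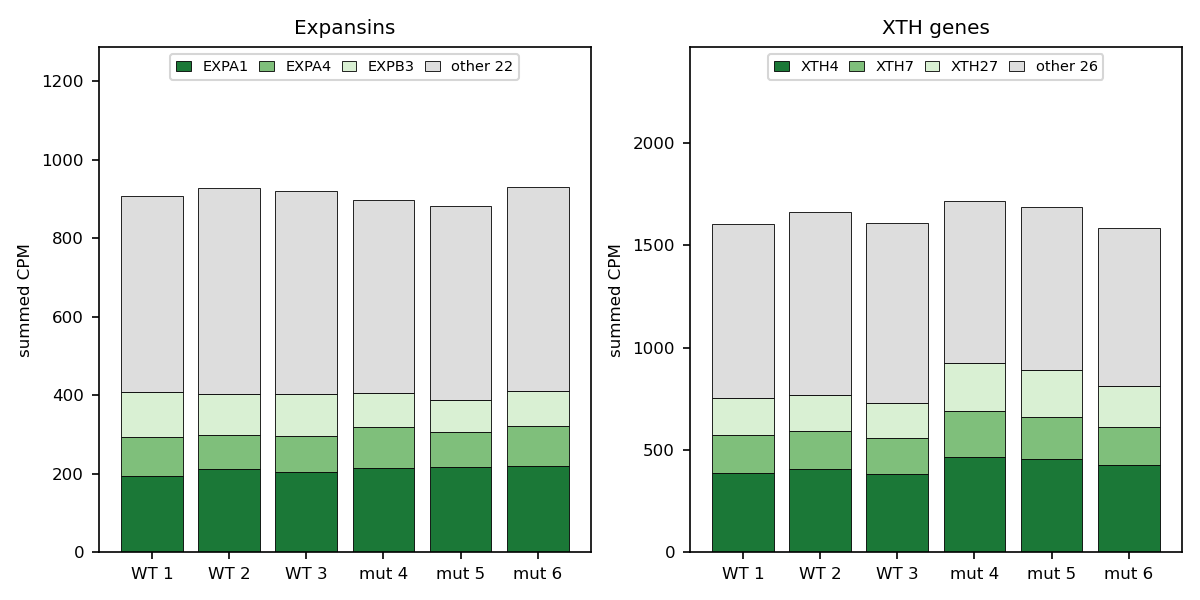
Summed CPM of the expansins (left) and XTH genes (right) in each library, from 0, split into the 3 members with the highest level per kb and all others. With the authors' scaled sizes, used here, the totals of wild type and mutant libraries overlap in both panels, at 881 to 930.6 CPM for expansins and 1586 to 1716 CPM for XTH genes.

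Of 6 members known from roots, EXPA7, EXPA18, XTH12, XTH13 and XTH14 fell and XTH26 did not pass, where 17.3% of all genes fell. This set does not hold every member known from roots. Outside it XTH17 also fell, XTH21 did not pass, and EXPA17 rose with overlapping groups. Markers of root hairs are given beside the 6 members. Of 14 root hair marker genes 0 rose and 9 fell, against 17.9% and 17.3% of all genes, with a median log2 change of -0.41. None was at 0 in any library. RHS15 fell by 1.06, the regulators of root hair growth RSL2 and RSL4 by 1.01 and 0.72, and the wall protein COBL9 by 0.62. RSL2 was not called in limma without the trend or once wild type replicate 2 was left out. Summed, the markers ranged from 569 to 802 CPM in wild type and from 503 to 584 CPM in prp8a-14, so the sums overlapped through wild type replicate 1, the lowest wild type library. With library totals they did not overlap, at 582 to 826 CPM and 478 to 574 CPM. Wild type replicate 1 was also the lowest wild type library for all 6 of EXPA7, EXPA18, XTH12, XTH13, XTH14 and XTH26. The same held for 28 of the 54 members, among them XTH17, XTH21 and EXPA17. The share of all genes for which it was the lowest was not counted. Relative to the wild type mean, replicate 1 stood at 0.826 for the marker sum and at 0.750 to 0.854 for these 6 genes. Without it their log2 changes ran from -0.48 (XTH26, which then passed) to -0.82 (XTH13). These 6 genes were picked with their values known, from background knowledge of root expression, and the part of root hair number in their levels was not tested.

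**Figure D5:**
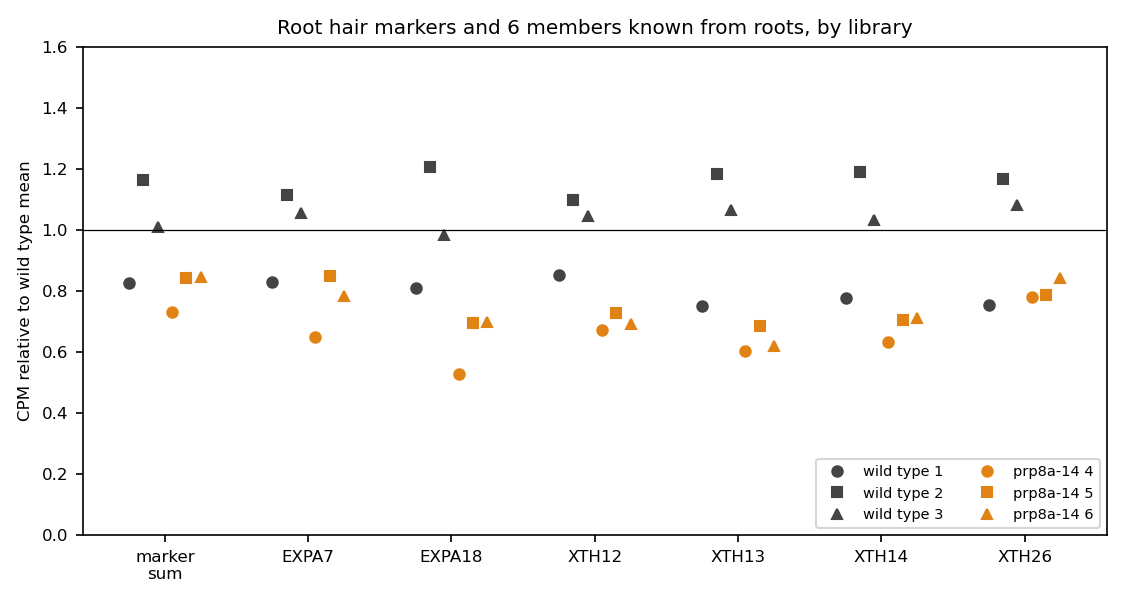
CPM relative to the wild type mean (line at 1) for the sum of 14 root hair markers and for 6 expansin and XTH genes known from roots, by library (grey, wild type; orange, prp8a-14; the shape marks the replicate). Wild type replicate 1 lies below 1 in all 7 columns, at 0.750 to 0.854.

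Markers of other tissues differed in direction from list to list. For comparison, 17.9% of all genes rose and 17.3% fell. Of 5 other root markers measured, of 7 chosen, 1 rose and 2 fell, among them the Casparian strip gene CASP1 (-0.74), the epidermal regulator WER (-0.68) and the ground tissue regulator SCR (0.25), and the sums overlapped at 133 to 139.4 CPM in the wild type libraries, against 129.9 to 133 CPM in the mutant, and did not overlap with library totals (136.3 to 144 CPM and 123.5 to 129 CPM). Of 7 xylem and secondary wall genes 0 rose and 5 fell, with XCP1 at -0.49 and the secondary wall cellulose synthase CESA7 at -0.46; their sum was 173 to 189 CPM and 139 to 142 CPM, without overlap. Of 2 lateral root markers measured, of 4 chosen, 0 passed (PUCHI at -0.07), at sums of 3.29 to 3.59 CPM and 2.92 to 3.95 CPM. All 5 green tissue markers rose, by 0.47 to 0.94, and summed to 11718 to 13089 CPM in wild type seedlings, against 17411 to 18724 CPM in the mutant; with quantile normalization the change of RBCS1A was -0.03 and was not called. No measured marker of these lists was at 0 in any library, ESB1, WOX5, LBD18 and LBD29 were not analysed here, and the part of tissue make-up in the changes of the members was not tested.

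Genes that make xyloglucan, the substrate of the XTH enzymes, also fell more often than they rose: of 14, 3 rose and 8 fell, against 17.9% and 17.3% of all genes, with a median log2 change of -0.21. The xylosyltransferase genes XXT3 and XXT1 had opposite changes of -0.60 and 0.33, and the glucan synthase genes CSLC12 and CSLC4 of -0.36 and 0.22. The call of XXT3 ended once wild type replicate 3 was left out. XXT4 fell with overlapping groups, and only wild type replicate 1 could be left out without ending its call. The fall of CSLC5 was not called without wild type replicate 2, mutant replicate 5 or mutant replicate 6. The rise of XLT2 was not called without any library but wild type replicate 1 or mutant replicate 4, nor with library totals. In limma without the trend XXT4, CSLC5 and XLT2 all lost their calls. MUR3, a galactosyltransferase of the xyloglucan side chains, fell by 0.33, and the fucosyltransferase gene FUT1 by 0.21. Of 3 enzymes that trim xyloglucan in the wall 1 fell, the fucosidase AXY8 (-0.19), and 0 rose. Of 11 genes of cellulose synthesis in primary walls 0 rose and 4 fell, with CESA9 at -0.52 and AT5G42860 at -0.41; CESA9 was not called with quantile normalization or when wild type replicate 1 or mutant replicate 5 was left out. CESA6 (-0.14) lost its call in limma without the trend and when wild type replicate 2 or 3 or mutant replicate 5 was left out. CESA1 and CESA3, the central subunits, had values of -0.07 and -0.10 that did not pass. With library totals (-0.17 and -0.20) and with quantile normalization (-0.30 and -0.32) both were called. Library totals shifted the median of all genes to -0.09, and 29.6% of all genes then fell. Quantile normalization also gave lower values for abundant genes of other lists, PME3 at -0.21 against 0.01 and LHCB6 at 0.59 against 0.92.

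Of pectin genes and of proton pumps 22.2% fell, near the 17.3% of all genes, while 17.9% of all genes rose. Among 9 pectin genes measured 0 rose and 2 fell, the methylesterase PME17 by 0.79 and the galacturonosyltransferase GAUT1 by 0.18. Of 9 plasma membrane proton pumps 1 rose and 2 fell, with AHA7, a pump of the root epidermis, at -0.45, AHA4 at -0.36 and AHA5 at 0.24. AHA1 and AHA2, the most abundant pumps, had values of -0.07 and -0.11 that did not pass. Both were called with library totals (-0.17 and -0.21) and with quantile normalization (-0.34 and -0.40). Neither AHA4 nor AHA5 was called once wild type replicate 3 was left out, nor AHA5 with library totals.

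Regulators known to act on expansin and XTH genes moved in both directions. Of 15 growth regulators of the brassinosteroid, auxin and light pathways 8 rose and 4 fell, against 17.9% and 17.3% of all genes. PIF4, a light-regulated activator of elongation, rose from 22.9 CPM ± 1.79 (SD, n = 3) to 42.00 CPM ± 4.04 (SD, n = 3), or by 0.88 on the log2 scale. BR6OX2 and CPD, enzymes of brassinosteroid synthesis, rose by 0.75 and 0.62, and the brassinosteroid receptor gene BRI1 by 0.26. Among other genes of that pathway BAK1, DWF4 and BIN2 rose by 0.23, 0.22 and 0.22. BES1 fell by 0.23, and BZR1 had a value of -0.12 that did not pass. BES1 was not called in limma without the trend or when wild type replicate 1 or 2 or mutant replicate 5 was left out. DWF4 was not called with library totals or when wild type replicate 2 or mutant replicate 5 was left out. BZR1 was called with quantile normalization (-0.15) and with library totals (-0.21). The auxin response genes IAA5 and IAA19 fell by 1.18 and 1.16, and the call of IAA5 ended once wild type replicate 2 was left out. IAA5 rested on 19 to 66 counts a library, and adding 1 CPM gave -0.50. Of 6 rapid touch genes, the class of XTH22, 3 rose and 0 fell, against 17.9% and 17.3% of all genes, with a median of 0.54. CML38, WRKY40 and ERF5 had overlapping groups and did not pass. The 6 genes summed to 223.7 to 265 CPM in wild type and to 273 to 327 CPM in prp8a-14, without overlap. With library totals the sums overlapped, at 229 to 275 CPM and 260 to 321 CPM, through wild type replicate 3, the highest wild type library. TCH2, a calmodulin-like protein, rose by 0.56 with groups apart, and TCH3 by 0.25, a call that library totals ended. ZAT12 rose by 0.70 with overlapping groups, and was not called when any library but wild type replicate 3 was left out, with library totals, with 1 CPM added and in limma without the trend.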

How the data were processed

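Poly-A selected RNA was sequenced in pairs from 6 libraries, per the labels' protocols. The submitters' processing notes name limma, edgeR, Salmon 0.8.2, featureCounts 1.4.6-p5 of Subread, STAR 2.5.1a and bcl2fastq, with no role or order. The sources used here do not give genome build, annotation, strand setting or the rule for listing genes, so overlapping and antisense genes are uncertain. The deposited table holds log2 values per library, which by their steps are log2 of CPM with 0.5 counts added, relative to scaled library sizes chosen by the authors: within a tolerance of 0.1, 100% gave whole counts. The table has 3 further value columns whose names fit no sample, and these were left aside; whether they entered the authors' scaling, on which every CPM and log2 change rests, is not known. Of 20079 lines 272 repeated a gene with equal values, and each gene was used once.

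The 19807 genes were fitted with limma 3.58.1 in R 4.3.3 (eBayes with an intensity trend, two-sided) on the log2 values, and p-values were adjusted over all of them by BH. The fit was also run on simulated counts, which had the same dispersion for every gene and changes in few genes. These settings differ from the data, so the simulation does not check the calls made here. CPM are recovered counts over the authors' sizes, and 3 counts correspond to 0.0484 to 0.0635 CPM. The interval of a pooled count ratio is exact (binomial, 95%). Levels per kb use the longest RefSeq transcript of TAIR10.1, whose coordinates are not printed; identities are from global alignment of coding sequences (Biopython 1.88). Tables and figures used Python 3.11.15, pandas 2.3.3, scipy 1.17.1 and matplotlib 3.10.9. Library values are given for members past the threshold with a log2 change of at least 0.58 in size (at most 12 per family) and for the 3 of each family with the highest level per kb. From each pathway or marker list, up to 2 members that rose and 2 that fell, by size, are named; other genes were named after their values were seen. Members, lists and alternatives were chosen with earlier results of these data known. Alternatives were quantile normalization, library totals, a filter at 5 CPM on the mean, limma without trend, 1 CPM added, voom on the recovered counts, and each library left out.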

Additional observations from a re-analysis of the deposited data

How the results depend on the processing

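Across the 12 alternatives the counts moved by no more than 1.5 times from those reported: 4 to 5 expansins rose and 6 to 11 fell, and 5 to 9 XTH genes rose and 12 to 16 fell. The medians stayed below 0 throughout. With library totals they were -0.19 for expansins and -0.39 for XTH genes, a shift close to that of all genes (-0.09), which the scaling itself causes. Leaving out 1 library gave medians of -0.13 to -0.07 for expansins and -0.40 to -0.22 for XTH genes. Of the 36 members that passed, 26 kept their calls in every alternative that tested them, 10 lost it in at least 1, and 0 changed direction; 7 of the 18 others passed in at least 1. Voom on the recovered counts and 1 CPM added changed no member's call, quantile normalization 1, library totals 6 and limma without trend 5. The filter at 5 CPM removed 7 members by construction. No paired analysis was made, because the sample titles name no pairs. Their numbers run from 1 to 6 across both genotypes, so they do not show whether libraries were paired. Depth did not limit most members, whose counts were at least 26 in every library, but XTH11, EXLA3 and XTH25, with SEs of 0.31, 0.28 and 0.27, have the widest errors.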
